A study of Mus musculus with 6 samples.

Results

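The NMDA and delta glutamate receptor subunits were followed through the array probe sets that the platform annotation assigns to exactly 1 of 7 listed genes, the NMDA receptor genes Grin1, Grin2a, Grin2b, Grin2c, Grin2d and Grin3a and the delta receptor gene Grid1. The rule gave 13 of the 45031 probe sets tested, for 6 of the 7 genes: 1 for Grin2a, 4 for Grin2b, 1 for Grin2c, 2 for Grin2d, 3 for Grin3a and 2 for Grid1. Grin1, which every NMDA receptor needs, was not analysed here. The study compared dorsal root ganglia (DRG), where the somata of sensory neurons lie, with spinal cord (SC), both from lumbar segments L1 to L6 of untreated male C57BL/6J mice 3 months old. Each tissue had 3 arrays, left and right sides were combined, and each array carried RNA of 4 mice, so differences between single animals cannot be seen. The pools of a tissue are described as independent. No dissection of dorsal from ventral cord and no sorting of cells is given, so in these whole tissues fewer cells of a type and less RNA per cell cannot be told apart.

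NMDA receptors are cation channels that open when glutamate and a co-agonist, glycine or D-serine, are bound while the membrane is depolarised, which removes a magnesium ion from the pore. Grin2 subunits bind glutamate and set the speed of closing and the strength of the magnesium block, and Grin3a lowers calcium flow and magnesium block. In the spinal dorsal horn these receptors are known for the lasting increase in synaptic strength that follows intense input from pain fibres, and receptors are also found on the central endings of sensory neurons. Delta receptors such as Grid1 belong to the same superfamily but act mainly as synaptic adhesion partners of cerebellins and neurexins.

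Promoter sequence was at hand in RefSeq (GRCm38.p6) for 2 of the 6 genes, Grin2c and Grin2d, both of which were higher in SC. The 250 bases before their annotated starts are shown because they differ in GC boxes and base composition. Capitals mark GC boxes, GGGCGG on either strand, and matches may overlap. The Grin2c window is chr11:115267244-115267493 and the Grin2d window chr7:45866682-45866931, both on the minus strand and written in the direction of transcription. The Grin2d start used by RefSeq here lies inside the annotated gene, so the 2 windows may not be comparable.
Grin2c: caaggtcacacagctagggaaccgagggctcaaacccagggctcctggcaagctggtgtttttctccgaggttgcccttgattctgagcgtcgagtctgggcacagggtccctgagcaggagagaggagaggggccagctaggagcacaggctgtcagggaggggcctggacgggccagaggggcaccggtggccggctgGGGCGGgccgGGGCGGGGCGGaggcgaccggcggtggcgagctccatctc
Grin2d: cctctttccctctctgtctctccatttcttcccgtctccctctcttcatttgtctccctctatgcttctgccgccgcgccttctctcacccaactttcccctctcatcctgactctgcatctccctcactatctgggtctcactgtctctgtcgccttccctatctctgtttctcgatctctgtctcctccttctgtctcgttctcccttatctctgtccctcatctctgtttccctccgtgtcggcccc
The Grin2c window holds 3 GC boxes and 15 CpG dinucleotides with 68.8% G and C, while the Grin2d window, rich in pyrimidines, has 0 GC boxes, 9 CpG dinucleotides and 54.4% G and C. Of 32851 promoter windows of the same length, 32.7% hold a GC box, and the medians are 6 CpG dinucleotides and 52.4% G and C. On either strand, neither window holds TATAAA, which 12.4% of the windows hold, CCAAT, held by 33.8%, CACGTG, held by 6.02%, TGACGTCA, held by 1.55%, or TTCAGCACC, a stretch of the neuronal repressor element, held by 0.301%. A match to these letters is a description and shows no bound factor.

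All 13 probe sets had a lower mean log2 signal in DRG than in SC, and 9 of them passed the test as higher in SC, for Grin2b, Grin2c, Grin2d, Grin3a and Grid1. None was called higher in DRG. The test was limma's on log2(signal + 16), fitted over all 45031 probe sets with Benjamini-Hochberg adjustment and called at an adjusted p under 0.05. Calls toward SC made up 9.79% of all probe sets and calls toward DRG 22.7%, and among the 20537 probe sets whose mean signal lay in the range of the 13, the shares were 13.1% and 21.8%. The 3 SC arrays stood above the 3 DRG arrays for 10 of the 13 probe sets, against 15.1% of all probe sets. A difference of at least 2-fold on this scale was called for 6 of the 13, against 4.79% of all, a share not matched for signal. These 6 were dim. Only the Grin2b probe set 1457003_at among them stood above the level described below on all SC arrays, and none did on any DRG array. The median log2 difference, DRG minus SC, was −0.97 over the 13 probe sets and 0.08 over all. Probe sets of the same gene are not independent. By the probe set with the highest log2 mean of each gene, 4 of the 6 genes were called higher in SC, against 9.7% of all 18192 genes. Grin2a and Grin3a were not called on that measure.

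Signals were low for most of these subunits. A level for genes not expected in either tissue was set at 171, the highest of the 6 arrays' 95th percentiles over 51 probe sets of genes specific to other organs such as liver, testis and retina. SC replicate 3 gave the 171. The other arrays had 95th percentiles of 93.2 to 111, so the level is strict for them. All 3 SC arrays were above the level for 6 of the 13 probe sets and all 3 DRG arrays for 1, a Grin2d probe set. Of the 9 called probe sets, 4 stood above the level on all SC arrays and the other 5 did so in neither tissue. A fold is given below as a lower bound where a tissue was under the level, and no fold where both were.

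**Figure D1:**
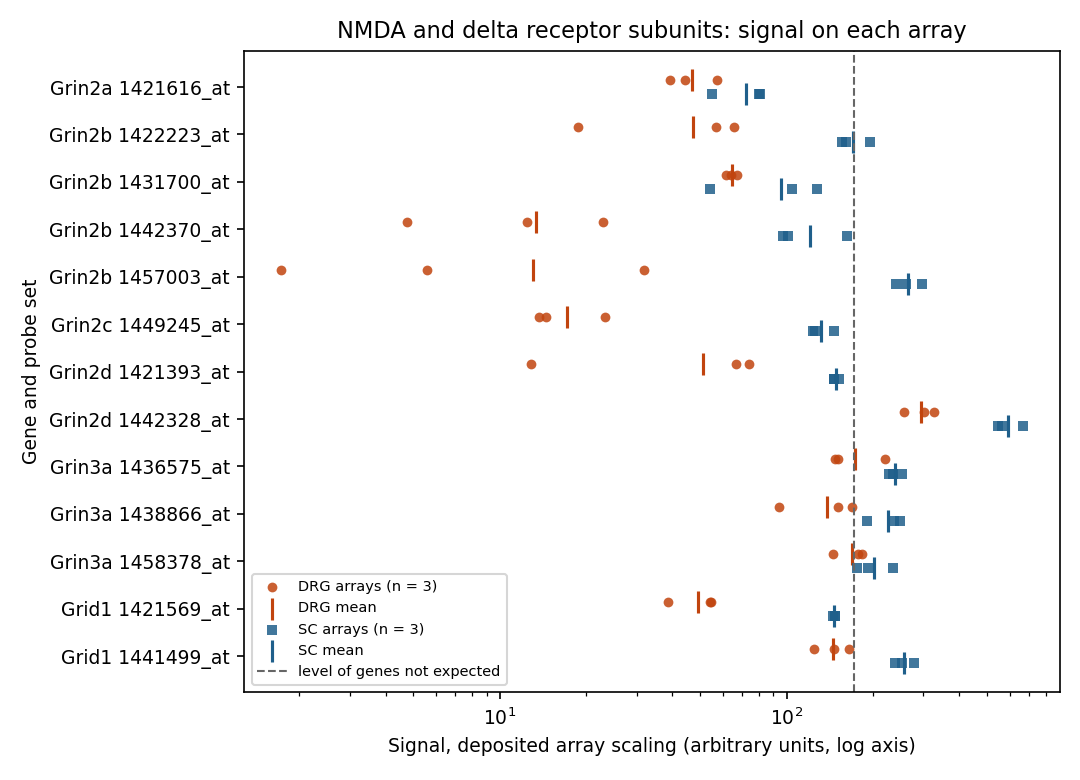
Signal of each of the 13 probe sets on each array, on a log axis in arbitrary units, with 3 DRG arrays (circles), 3 SC arrays (squares), tissue means (bars) and the level of genes not expected at 171 (dashed line). Only the Grin2d probe set 1442328_at lies to the right of the line on all 6 arrays, and its SC arrays (547 to 665) are all above its DRG arrays (256 to 327).

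Grin2d, whose subunit is known for slow closing and a weak magnesium block, gave the brightest probe set of the group. Its signal on 1442328_at was 256, 327 and 302 on the 3 DRG arrays and 665, 547 and 565 on the 3 SC arrays. The SC arrays were all higher, with means of 592 ± 63.7 and 295 ± 36.1 (SD, n = 3 each). The difference was −0.97 ± 0.12 (SE; limma adjusted p = 0.000153), a 2.01-fold ratio of signals, and was the only one measured above the level on all arrays of both tissues. The other Grin2d probe set, 1421393_at, had signals of 66.6, 12.8 and 74.0 in DRG against 147, 152 and 146 in SC, which did not overlap. Its difference of −1.46 ± 0.40 (limma adjusted p = 0.0197) rested on signals under the level in both tissues and lost its call when SC replicate 1, 2 or 3 was left out (limma adjusted p = 0.0577, 0.0619 and 0.0575). Without DRG replicate 2, the array at 12.8, the difference was −0.93 and still called (limma adjusted p = 0.00514).

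Grin2b, whose subunit closes slowly and anchors CaM kinase II at the synapse, had the largest measured difference of the group but not on all its probe sets. On 1457003_at the signal was 1.73, 5.59 and 31.9 in DRG against 240.5, 295 and 261 in SC. All 3 SC arrays were above the level and all 3 DRG arrays far under it, so the ratio was at least 1.55-fold. The measured difference was −3.41 ± 0.36 (limma adjusted p = 6.54e-05). On 1422223_at, the signals were 56.8, 65.5 and 18.8 in DRG against 161, 195 and 156 in SC, with 1 SC array above the level (−1.66 ± 0.32, limma adjusted p = 0.00302). On 1442370_at they were 12.5, 22.9 and 4.76 in DRG against 101, 162 and 97.2 in SC (−2.23 ± 0.32, limma adjusted p = 0.000457). These 3 probe sets each separated the tissues completely. The fourth, 1431700_at, did not: its signals were 61.3, 67.4 and 64.2 in DRG against 128, 104 and 54.0 in SC, and SC replicate 3 fell below every DRG array. Its difference was −0.41 (95% interval −1.06 to 0.24, limma adjusted p = 0.344), or −0.71 and still not called without SC replicate 3 and before the array scaling. The files do not say which part of the transcript each probe set reads.

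Grin2c, best known from cerebellar granule cells and also found in glia, was dim in both tissues. Its signal on 1449245_at was 14.5, 23.3 and 13.7 in DRG against 124, 146 and 126 in SC. The tissues were far apart relative to their spread, with means of 17.1 ± 5.31 and 132 ± 12.5 (SD, n = 3 each) and a difference of −2.17 ± 0.24 (limma adjusted p = 9.12e-05), but no array reached the level and no fold is given. SC replicates 1 and 2 were above the 95th percentile of their own array (93.2 and 111). Grin2a, the subunit that gives faster closing, had signals of 57.1, 39.2 and 44.4 in DRG against 80.4, 80.6 and 54.9 in SC on its single probe set, 1421616_at. The arrays overlapped and the difference of −0.48 was not called (95% interval −1.05 to 0.09, limma adjusted p = 0.196), although it was called on the signals before the authors' array scaling (−0.77, limma adjusted p = 0.0402). Over all alternatives its adjusted p ran from 0.0402 to 0.397.

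Grin3a, the glycine-binding subunit, showed smaller differences, and its probe sets disagreed on the call. On 1438866_at the signal was 94.1, 151 and 169 in DRG against 236, 249 and 190.3 in SC, without overlap (−0.67 ± 0.21, limma adjusted p = 0.0336), a ratio of at least 1.31-fold. The call was lost without DRG replicate 1 (limma adjusted p = 0.0694), SC replicate 1 (0.103) or SC replicate 2 (0.120), and before the array scaling the difference was −1.01. On 1436575_at the signals were 147, 151 and 220.4 in DRG against 227, 235 and 252 in SC, also without overlap, and the difference of −0.45 ± 0.16 missed the threshold (limma adjusted p = 0.0638). It was called after quantile normalization (−0.59, limma adjusted p = 0.0157), before the array scaling (−0.79, 0.00362), in the fit on the brighter probe sets alone (0.0333) and without DRG replicate 3 (−0.62, 0.00902), the highest of its DRG arrays. On 1458378_at the signals were 177, 184 and 145 in DRG against 176, 236 and 191 in SC and overlapped (−0.23, 95% interval −0.58 to 0.12, limma adjusted p = 0.318). Before the array scaling this probe set was called too (−0.57, limma adjusted p = 0.0219). In DRG the 3 probe sets stood near the level, with 1, 0 and 2 arrays above it in the order 1436575_at, 1438866_at and 1458378_at.

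Grid1 was higher in SC on both probe sets. On 1441499_at the signal was 165, 124 and 146 in DRG against 252, 238 and 279 in SC. All SC arrays were above the level and all DRG arrays under it, so the ratio was at least 1.5-fold, and the difference was −0.76 ± 0.14 (limma adjusted p = 0.00217). On 1421569_at the signals were 54.1, 54.5 and 38.6 in DRG against 148, 147 and 145 in SC, with a difference of −1.33 ± 0.20 (limma adjusted p = 0.000672) at signals under the level in both tissues.

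**Figure D2:**
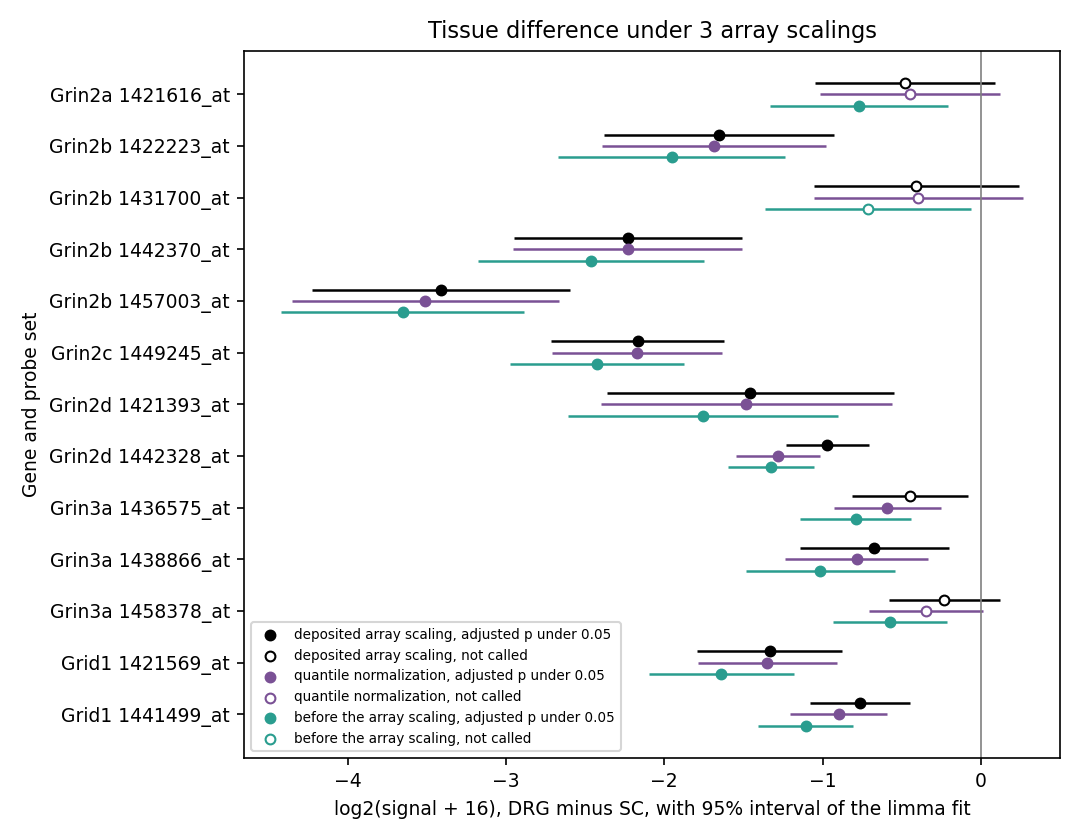
Difference in log2(signal + 16), DRG minus SC, for each probe set with the 95% interval of the limma fit, under the deposited array scaling, quantile normalization and the signals before the array scaling (filled: adjusted p under 0.05). Every point is below 0, and 9, 10 and 12 of 13 probe sets were called under the 3 scalings in that order.

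The array scaling moved the size of these differences but not their direction. With quantile normalization 10 of the 13 probe sets were called higher in SC, and with the signals before the authors' array scaling 12, the exception being the Grin2b probe set 1431700_at. Over all probe sets these scalings moved the share called higher in SC from 9.79% to 14.4% and 19.9%. They moved the median difference from 0.08 to 0.01 and −0.18, so the higher counts have a higher background. The signals before the authors' array scaling were already matched between arrays by trimmed mean (247.17 to 247.38). Their medians were 82.6 to 87.5 in DRG and 108.3 to 109.9 in SC. That setting thus compares 2 ways of matching arrays and does not show unscaled data.

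**Figure D3:**
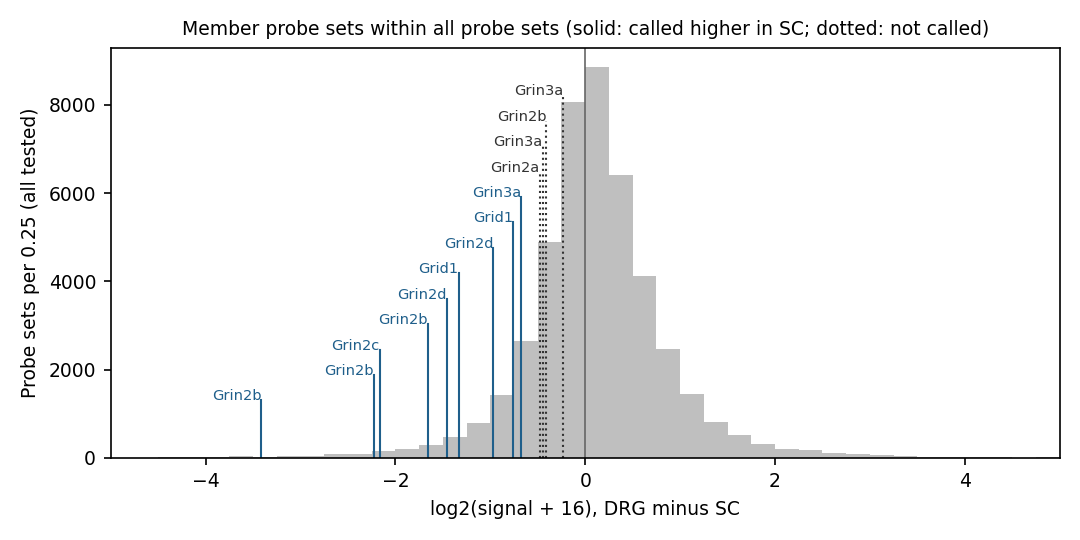
Histogram of the difference in log2(signal + 16), DRG minus SC, over the tested probe sets within −5 to 5, with the 13 receptor probe sets marked by lines (solid: called higher in SC, dotted: not called). The 13 lines run from −3.41 for a Grin2b probe set to −0.23 for a Grin3a probe set, all to the left of 0, while the median of all probe sets is 0.08.

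The subunits were also set against Grin2d within each array, which removes the array scaling apart from the effect of the pseudocount. The reference was the probe set 1442328_at, chosen after its values were seen, and a difference here shows unequal change only. Relative to Grin2d, the difference DRG minus SC was −2.44 for the Grin2b probe set 1457003_at, −1.26 for 1442370_at and −1.20 for Grin2c. It was 0.52 for the Grin3a probe set 1436575_at, 0.74 for 1458378_at and 0.56 for the Grin2b probe set 1431700_at. The arrays of the tissues did not overlap for these 6 of 12 comparisons. No share over all probe sets was computed here, so that count is no result about the subunits. The reference itself differed by −0.97, so a probe set with equal signals in both tissues would lie above 0. Each of the 6 had an exact two-sided permutation p of 0.1, the smallest that 3 against 3 arrays can give. Their adjusted p was 0.2 over the 12, so none could pass. These values depend on the pseudocount: for 1457003_at the difference was −3.98 with a pseudocount of 1 and −1.24 with 64, and for Grin2c −1.90 and −0.40. For both Grid1 probe sets, Grin2a, the Grin2b probe set 1422223_at, the Grin3a probe set 1438866_at and the other Grin2d probe set the arrays overlapped on this measure.

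The genes whose pattern over the 6 arrays was most like that of the Grin2b probe set 1457003_at, the largest called difference, were Camkv (r = 0.999), Hlf (r = 0.998) and Tmem191c (r = 0.998), by Pearson's r of log2(signal + 16) among 16313 named genes. The 6 arrays fall into 2 tissues, and 41 genes had an r of at least 0.99. Camkv, a kinase-like protein of neurons, differed by −3.16 (limma adjusted p = 7.93e-05).

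Cell type markers moved with the tissues. Of 3 markers of spinal inhibitory neurons, Gad1, Slc32a1 and Slc6a5, all were higher in SC, with summed signals of 71.5 to 84.7 in DRG and 4508 to 4616 in SC, and each was under the level on all DRG arrays. All 5 astrocyte markers were higher in SC, with sums of 580 to 675 in DRG and 15903 to 17974 in SC, and so were all 3 of oligodendrocytes (142 to 203 and 5880 to 6444). Sensory neuron markers were higher in DRG, 5 of 5, with sums of 18647 to 19768 in DRG and 522 to 659 in SC, and of 7 markers of neurons in both tissues 6 were higher in DRG and 0 in SC. The general neuronal list depended on scaling, with 5 higher in DRG and 1 in SC on quantile-normalized values. With the array scaling undone the counts were 4 and 1, and Nefl lost its call. The counts for inhibitory neurons, astrocytes, oligodendrocytes and sensory neurons were the same on all 3 scalings. The part of cell composition in the receptor differences was not tested. Markers of Schwann cells (3 of 3) and fibroblasts (3 of 3) were higher in DRG, as were 2 of 2 of adipocytes and 1 of 1 of blood, while 2 of 3 of microglia, 1 of 2 of endothelium and, of 3 of motor neurons, Slc18a3 were higher in SC. Of these, Adipoq (adipocytes), Alas2 (blood) and Cx3cr1 (microglia) were under the level on all arrays. Egr2 of the Schwann cell list was above it on 1 DRG array only. Isl1, of the motor neuron list but also made by sensory neurons, was higher in DRG. None of 3 skeletal muscle markers was called.

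Genes that work with the receptors were called in both directions, toward SC more often than all genes. The probe set with the highest log2 mean stood for a gene. Of 73 partner genes, the same limma fit called 29 toward SC and 25 toward DRG, against 9.7% and 31.8% of all 18192 genes, with medians of −0.04 and 0.18. The count toward DRG lay near the share of all genes, and the count toward SC above it. These shares of all genes are also the background for the counts of each list below. On quantile-normalized values 34 were called toward SC and 15 toward DRG, and with the array scaling undone 34 and 13. Over all probe sets, rather than 1 per gene, the share called toward DRG fell with the same settings from 22.7% to 14.9% and 13.3%. The share called toward SC rose from 9.79% to 14.4% and 19.9%.

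Scaffolds that hold NMDA receptors at the postsynaptic density leaned toward SC: 7 of 13 passed the test in that direction, 3 were called higher in DRG, and the median log2 difference was −0.59. Shank3, a master scaffold, averaged 466 ± 14.7 across SC pools and 243 ± 21.4 across DRG pools (SD, n = 3 each; −0.90 ± 0.10, limma adjusted p = 7.74e-05). Dlgap2 and Actn2, an actinin that binds the receptor tail, were at −1.65 and −1.08, both under the level in both tissues. The Actn2 arrays overlapped between tissues, and its call was lost under 8 of 15 alternatives, among them leaving out DRG replicate 1 or 2 or SC replicate 1 or 2. The genes higher in DRG were the spectrin gene Sptan1 at 1.02 (0.46 on quantile-normalized values, 0.65 with the array scaling undone), the neurofilament gene Nefl at 0.57 and Dlgap4 at 0.40. Dlgap4 lost its call without DRG replicate 1 or 3 or any SC array and on both other scalings, and Nefl before the array scaling (0.20, limma adjusted p = 0.158; 0.25 and still called after quantile normalization).

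Kinases, phosphatases and signalling partners split, with 5 of 20 higher in SC and 12 higher in DRG and a median of 0.47. That balance depended on scaling: quantile-normalized values gave 8 higher in SC and 7 in DRG (median −0.08), and signals before the array scaling gave 7 each way (median 0.11). Rasgrf1, a calcium-activated Ras exchange factor that binds Grin2b, averaged 3837 ± 405 across SC pools and 364 ± 59.6 across DRG pools (SD, n = 3 each; −3.35 ± 0.12, limma adjusted p = 8.42e-08). Its probe set is of the kind shared between transcripts (suffix _s_at). Ptpn5, a tyrosine phosphatase of Grin2b, and Camk2b, the beta chain of CaM kinase II, were higher in SC at −1.91 and −1.89. The other CaM kinase II chains did not go with Camk2b. Camk2d at 1.33 and Camk2g at 0.47 were called higher in DRG, and Camk2a at 0.47 was not called. These chains were picked after their values were seen. Toward DRG, Rasgrp1, another Ras exchange factor, reached 2063 to 2299 on the DRG arrays but 81.0 to 116 on the SC arrays (4.25 ± 0.12, limma adjusted p = 2.15e-08), which puts it at least 12.8-fold higher in DRG. The tyrosine kinase gene Ptk2b was higher in DRG by at least 1.5-fold, and the death-associated kinase gene Dapk1 differed by 2.05.

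Trafficking and surface partners were called in 9 of 14 cases, 4 higher in SC and 5 higher in DRG, with a median of 0.15. The count toward DRG and the median lay near those of all genes (31.8% and 0.18), and 9.7% of all genes were called toward SC. Quantile normalization turned the list's median to −0.09, and undoing the array scaling turned it to −0.20. The adhesion gene Nlgn1 was at −1.03 but under the level in both tissues, the secreted glycoprotein gene Reln at −0.60 and Kif17, a motor that carries Grin2b along dendrites, at −0.50. The Kif17 call was lost without SC replicate 1 or 2 (limma adjusted p = 0.0559 and 0.0503). Toward DRG, the adaptor genes Apba1 and Lin7a, which link to the same motor, were at 1.71 and 0.99, and the exocyst gene Exoc4 at 0.92. These shrank with quantile normalization to 1.13, 0.65 and 0.37, and Lin7a and Exoc4 to 0.63 and 0.55 before the array scaling, while Reln grew to −1.08 and −0.96 and Kif17 to −0.78 and −0.85 on those scalings. All 5 kept their calls there.

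Co-agonist supply genes passed the test toward SC in 8 of 16 cases and toward DRG in 4, or 1 on each of the other scalings (median −0.34). The list joins genes that make, transport and degrade co-agonists, so the counts do not show which tissue has more co-agonist. Toward SC, the neuronal glycine transporter gene Slc6a5 differed by at least 9.73-fold, Slc7a10, a transporter of glycine and D-serine, at least 7.51-fold, and Dao, which degrades D-serine and was read by a probe set of the shared _s_at kind, at least 1.89-fold. The Slc6a5 value of 1 DRG array was at the floor of the deposited ratios. Srr, which makes D-serine, was at −0.04 (95% interval −0.46 to 0.37). Srr was picked after its value was seen. Toward DRG, the amino acid exchanger gene Slc1a5 was at least 1.93-fold higher, while the glycine cleavage genes Gcsh and Dld, at 0.54 and 0.42, had differences of −0.02 and −0.07 after quantile normalization and lost their calls there and before the array scaling.

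Among ligands and partners of delta receptors, listed together with related secreted proteins such as C1ql3, 5 of 10 passed the test toward SC and 1 toward DRG (median −0.61). Toward SC, the cerebellin gene Cbln4 differed by at least 1.74-fold and C1ql3, of a related family of secreted proteins, by at least 2.28-fold. Cbln1, a ligand that bridges delta receptors to neurexins, averaged 508 ± 52.0 across SC pools and 192 ± 16.5 across DRG pools (SD, n = 3 each; −1.33 ± 0.11, limma adjusted p = 1.44e-05), again on an _s_at probe set. Cbln2 ran the other way, with signals of 403 ± 16.5 in DRG and 235 ± 2.75 in SC (0.74 ± 0.09, limma adjusted p = 0.000177), and was called in the same direction under its 16 alternatives, though its difference fell to 0.39 before the array scaling.

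**Figure D4:**
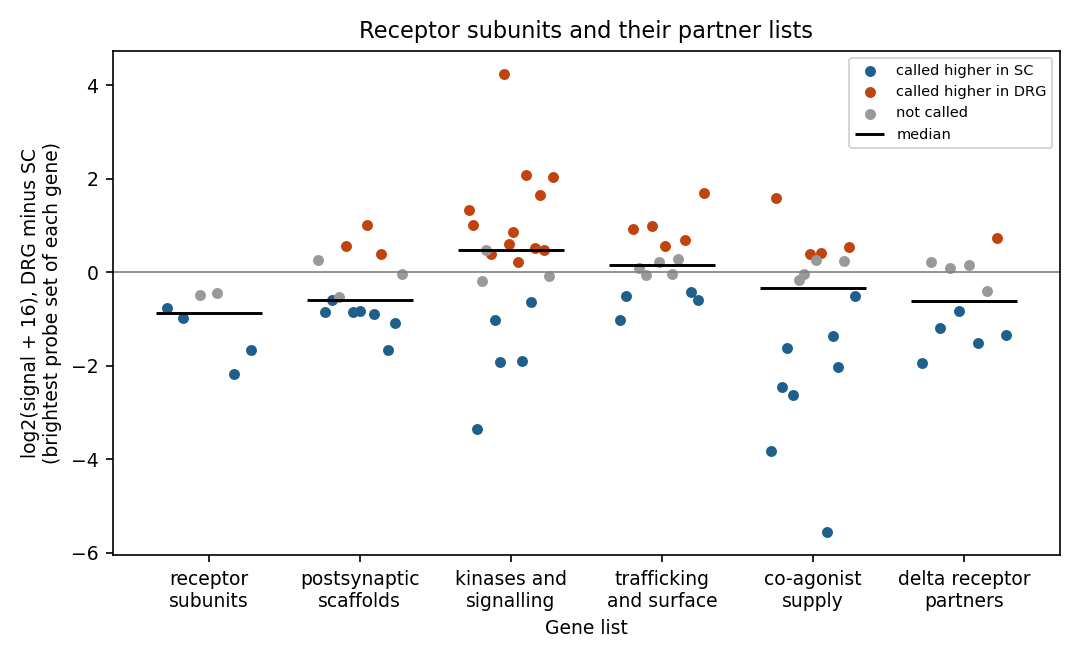
Difference in log2(signal + 16), DRG minus SC, of the 6 receptor genes and of 5 partner lists, each point a gene by its brightest probe set (blue: called higher in SC, orange: called higher in DRG, grey: not called) with the list's median as a bar. The receptor genes all lie below 0, whereas 3 to 12 genes of the scaffold, signalling, trafficking and co-agonist lists and 1 of the delta receptor list were called above 0. Of all 18192 genes, 31.8% were called above 0.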

How the data were processed

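RNA of 6 arrays was compared, 3 pools per tissue. The submitters' processing notes name MAS5, without a version, for the signals. The values the authors deposited are linear ratios. In 91.8% of probe sets their median over the 6 arrays was 1, and in 8.21% they lay on a regular grid, so the ratio was read as signal divided by an array factor and by the probe set's median (a constant for dim probe sets). Signals were recovered as the smallest set of whole steps of 0.1 that gives the 6 ratios. On simulated probe sets 98.5% came back exactly and 1.55% came back off by a common factor on all arrays. As the smallest set was taken, such signals come back too low. The deposited array scaling was kept, at the mean of the array factors (84.5 to 89.5 in DRG, 111 to 113 in SC). The recovered signals before it already had nearly equal trimmed means on all arrays (247.17 to 247.38). Undoing the array scaling therefore leaves arrays matched by that measure. The 64 control probe sets and 6 without a recovered signal were left out.

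limma 3.58.1 in R 4.3.3 (lmFit, eBayes with trend) tested DRG minus SC on log2(signal + 16), two-sided, Benjamini-Hochberg over 45031 probe sets. Recovery used Python 3.11.15, numpy 2.4.6 and numba 0.67.0. The planned comparison with Grin1 was not run, and Grin2d took its place. Named partner genes were the up to 3 called genes of a list with the largest difference in each direction. Srr and the CaM kinase II chains other than Camk2b were added after their values were seen. Members and lists were chosen with earlier results of these data known, and the 51 probe sets of genes not expected, and the level from them, with the values in view. Independence rests on the labels, and p-values measure the spread between pools. With 3 arrays per tissue, their number limits the precision.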

Additional observations from a re-analysis of the deposited data

How the results depend on the processing

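The 13 receptor probe sets gave 196 fits under the alternatives, and the difference stayed below 0 in all of them. Calls did not change in 181, were lost in 9 and gained in 6. Every lost call was of the Grin2d probe set 1421393_at or the Grin3a probe set 1438866_at. The number called higher in SC was 9 with a pseudocount of 1 or 64, 7 with the logarithm of the deposited ratio and 8 without the intensity trend. Leaving out 1 array in turn gave 7 to 10. Of all probe sets, 9.6% and 9.94% were called higher in SC with a pseudocount of 1 and 64. The share was 8.89% with the logarithm of the deposited ratio, 9.25% without the trend and 7.84% to 9.19% with 1 array left out. No receptor probe set was called higher in DRG under any of these settings. The log2 sizes of dim probe sets depended on the pseudocount, and that of the Grin2b probe set 1457003_at ran from −5.29 to −2.11. Partner genes called higher in DRG numbered 15 on quantile-normalized values and 13 with the array scaling undone, against 25. Quantile normalization turned Gcsh to −0.018 and Dld to −0.067. The 28 partner genes named for their largest differences gave 440 fits, of which 26 lost a call and 2 turned.

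Same-numbered DRG and SC arrays did not deviate together (correlations of −0.01, −0.02 and 0.003), so the numbers were not taken as pairs. With the replicate block 9 receptor probe sets were called higher in SC, against 9.28% of all probe sets. Among the partner genes named for their largest differences Actn2 and Dlgap4 lost their calls there (limma adjusted p = 0.0771 and 0.0540).

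Most receptor signals lie under the level of genes not expected, and no detection calls were used here. The alternatives planned for a comparison with Grin1 were not run, for want of a Grin1 probe set in the annotation used.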
